A study of Caenorhabditis nigoni and Caenorhabditis briggsae with 14 samples.

Results

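Among 23439 listed genes, 4 were low in every library of both sterile hybrid strains although their levels did not differ strongly between the sexes in the fertile parents. They are known here by WormBase identifier as WBGene00023573, WBGene00023571, WBGene00030304 and WBGene00039536. Levels are CPM, a gene's counts scaled to a common library total. A gene was taken when each of the 6 sterile libraries lay below 0.7 times the lowest of the 6 parental male libraries, when both parents averaged at least 10 CPM in males, and when the sex ratio lay between 1/4 and 4 in both parents. The sex ratio is the male mean plus 1 CPM over the female level plus 1 CPM. The fall in sterile males and the bounds on the sex ratio therefore describe how the genes were chosen and are not findings.

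The study sequenced polyadenylated RNA from whole young adults, with 300 worms pooled in each library. ZZY10330 and ZZY10307 are sterile males with a mostly C. nigoni genome in which a part of the X chromosome comes from C. briggsae, from 16.4 Mb to the chromosome end in ZZY10330 and from 4.5 to 12.2 Mb in ZZY10307. They were sons of introgression-carrying females and JU1421 males, recognised by the cbr-myo-2::GFP marker. AF16 is wild type C. briggsae and JU1421 wild type C. nigoni, both fertile. Each of the 4 strains had 3 male libraries, and AF16 and JU1421 had 1 female library each, without a treatment in any group. Gene counts per library ran from 2372653 to 3785106, so that 3 counts correspond to 0.793 to 1.26 CPM. Nothing in the labels ties the replicates to separate cultures, so p-values reflect the spread between libraries, which may be technical.

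In adult Caenorhabditis males much of the transcriptome belongs to the germ line, which in males makes sperm. Low levels of sperm transcripts often accompany hybrid male sterility. Genes with similar levels in both sexes can belong to somatic tissues or to functions that the male and female germ lines share. In AF16, XX animals, labelled female, are ordinarily self-fertile hermaphrodites that also make sperm. The files do not pair identifiers with names, positions or functions, so no role is given to the 4 genes, their place inside or outside the introgressed X segments is not known here, and cell type markers were not analysed here.

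Lowered genes without a strong sex difference were rare on library totals. Of 7430 genes at 10 CPM or more in both parents, 249 (3.35%) met the condition on the sterile libraries. Of these, 242 had a sex ratio of 4 or more in both parents and 3 had it in 1 parent only. Only 4 of the 5438 genes with a sex ratio between 1/4 and 4 in both parents met it, which is 0.0736%, against 20.3% of the 1195 genes with a sex ratio of 4 or more in both. The sex ratio and the fall both use the parental male levels, which can by itself favour a fall among male-biased genes. The median ratio of the highest sterile to the lowest parental library was 2.93 over the 5438 genes and its first percentile 0.919. The ratios of the 4 genes were 0.112 in WBGene00023573, 0.285 in WBGene00023571, 0.517 in WBGene00030304 and 0.568 in WBGene00039536. With TMM-scaled library sizes, treated below, 45 of 5735 genes inside the bounds met the rule.

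**Figure D1:**
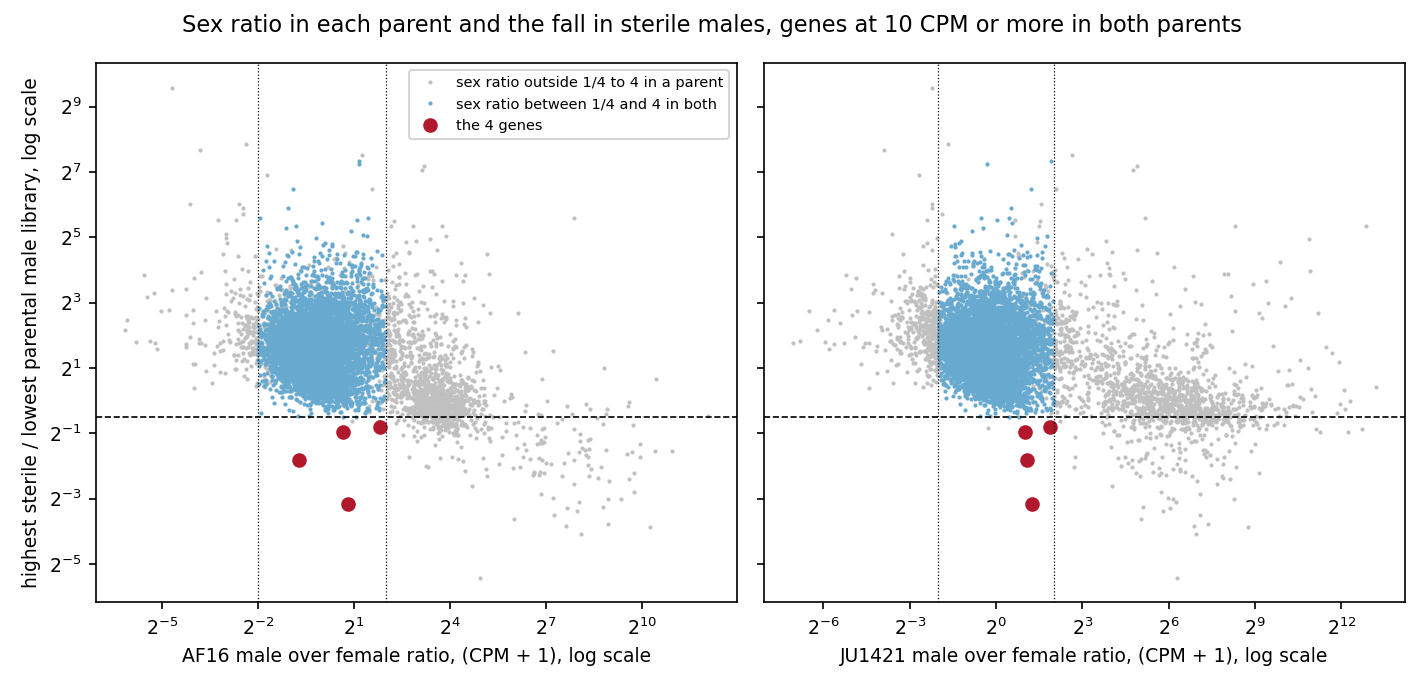
Each point is 1 of 7430 genes at 10 CPM or more in both parents, with the sex ratio in AF16 (left) or JU1421 (right) on the horizontal axis and the highest sterile over the lowest parental male library on the vertical axis, both on log scales; 1 gene without a sterile count is not drawn. Dashed and dotted lines mark 0.7 and the bounds 1/4 and 4, and the 4 genes (red) are the ones below the dashed line that lie inside the bounds in both parents.

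WBGene00023573 was nearly silent in sterile males. Its levels were 1.45, 0 and 0 CPM in the ZZY10330 libraries and 0, 2.76 and 0.837 CPM in the ZZY10307 libraries, against 72.5, 51.5 and 76.1 CPM in AF16 males and 50.9, 29.1 and 24.7 CPM in JU1421 males. The sterile libraries held 0 to 9 counts each and the parental male libraries 68 to 223, with a wide gap between them. Summed over the 3 libraries, the ZZY10330 level was 1.51% of that of JU1421 males (exact 95% interval 0.485 to 3.56%) and the ZZY10307 level 3.73% (1.84 to 6.78%). Against AF16 males the shares were 0.798% and 1.98%. These intervals cover counting error only. The females stood at 37.4 CPM in AF16 and 14.1 CPM in JU1421, above all 6 sterile libraries.

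WBGene00023571 was the other gene at the edge of detection. It stood at 3.48, 0 and 0 CPM in ZZY10330 and at 0, 0 and 0.837 CPM in ZZY10307, against 15.6, 12.2 and 21.1 CPM in AF16 males and 41.5, 27.1 and 47.1 CPM in JU1421 males. The 3 ZZY10307 libraries held 2 counts between them, and the 12 counts of ZZY10330 all lay in replicate 1. The ZZY10330 level was 3.26% of that of JU1421 males (1.67 to 5.78%) and the ZZY10307 level 0.613% (0.0739 to 2.23%). In ZZY10330 both this gene and WBGene00023573 were seen in replicate 1 only. Female levels were 27.4 CPM in AF16 and 17.9 CPM in JU1421.

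WBGene00030304 was lowered but well detected. The libraries stood at 29.6, 20.9 and 21.5 CPM in ZZY10330 and at 10.4, 14.1 and 7.53 CPM in ZZY10307, against 59.5, 57.2 and 65.9 CPM in AF16 males and 99.6, 137 and 126 CPM in JU1421 males. The gap between sterile and parental males follows from the choice. Within the sterile strains every ZZY10307 library lay below every ZZY10330 library, and within the parents every AF16 below every JU1421 male library. The share of all genes with such separations was not counted. The ZZY10330 level was 19.9% of that of JU1421 males (17.2 to 22.95%) and the ZZY10307 level 9.08% (7.27 to 11.2%). Female libraries held 38.4 CPM in AF16 and 60.3 CPM in JU1421, again above every sterile library.

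WBGene00039536 was the gene of lowest parental level after WBGene00023571 in AF16, and the lowest of all in JU1421. It stood at 3.77, 8.98 and 4.64 CPM in ZZY10330 and 5.22, 3.68 and 2.09 CPM in ZZY10307, against 27.6, 22.5 and 15.8 CPM in AF16 males and 24.2, 20.2 and 31.2 CPM in JU1421 males. The sterile strains overlapped each other, as did the parents. Its ZZY10330 level was 24.1% of that of JU1421 males (17.7 to 32.3%) and its ZZY10307 level 14.96% (9.97 to 21.8%).

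**Figure D2:**
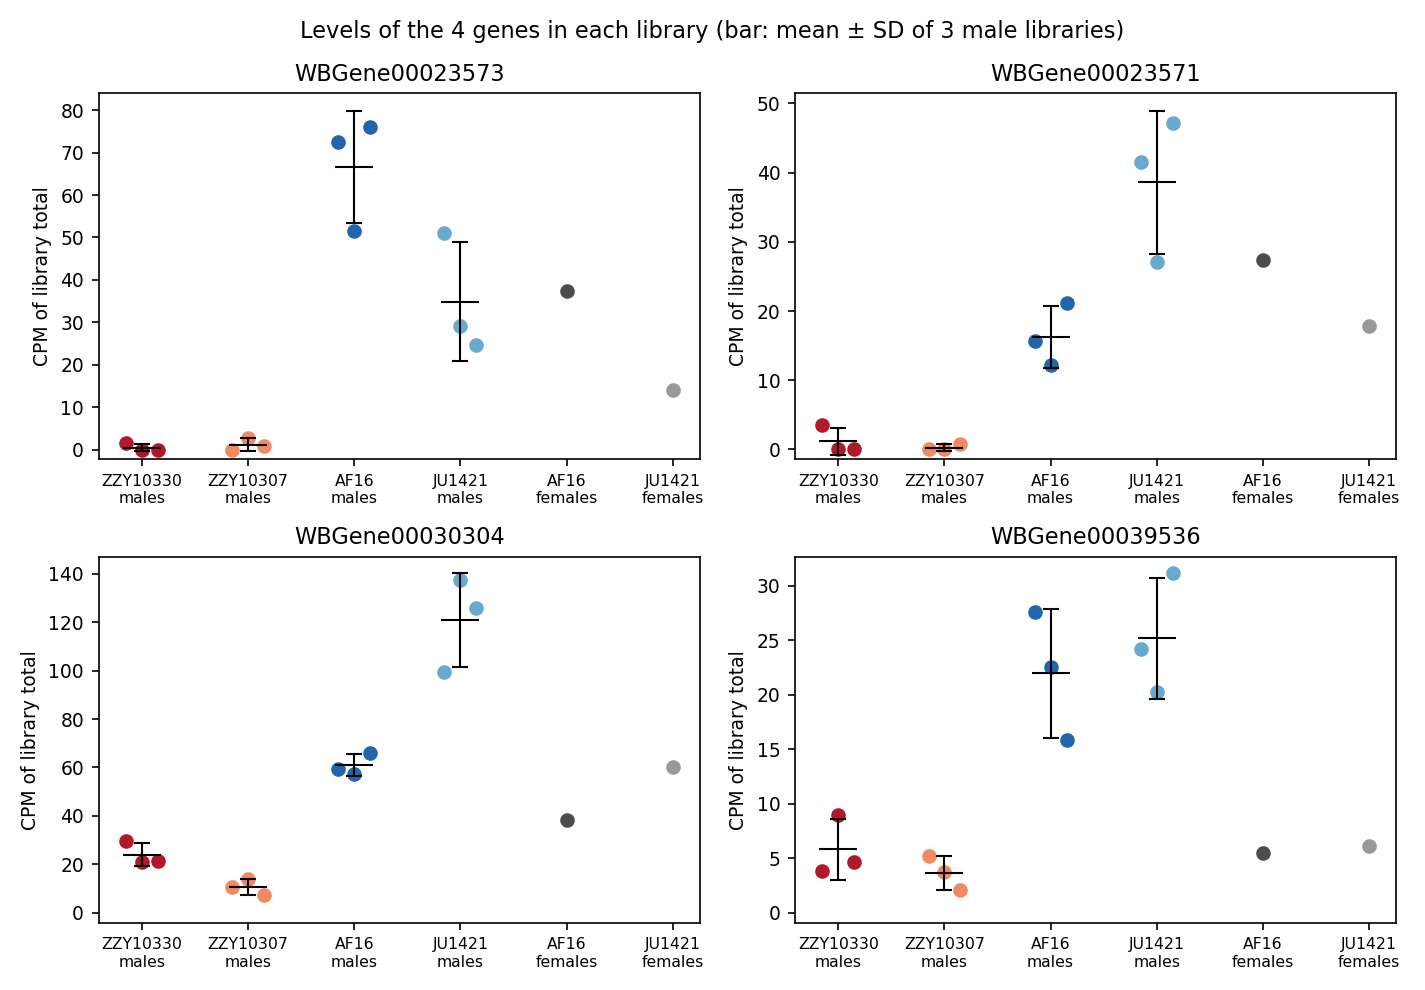
Levels of the 4 genes in CPM of the library total, with 1 point for each library, ZZY10330, ZZY10307, AF16 and JU1421 males from left to right and the AF16 and JU1421 females last; bars give the mean ± SD of the 3 male libraries. WBGene00023573 and WBGene00023571 lie between 0 and 3.48 CPM in all sterile libraries. WBGene00030304 and WBGene00039536 have counts in every sterile library, but WBGene00039536 falls to 2.09 CPM in ZZY10307 replicate 3, inside that range.

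As a description of how the genes were chosen, the fitted differences from the parents are given without a test. They come from edgeR's quasi-likelihood fit of the 12 male libraries with TMM scaling, which passed 13289 genes and all 4 of these. Against JU1421 males, the log2 fold changes in ZZY10330 were -6.21 (SE 0.80) for WBGene00023573, -5.17 (SE 0.91) for WBGene00023571, -2.58 (SE 0.29) for WBGene00030304 and -2.35 (SE 0.54) for WBGene00039536. In ZZY10307 they were -5.13 (SE 0.72), -7.45 (SE 1.11), -3.88 (SE 0.31) and -3.13 (SE 0.57) for the genes in the same order. The values of WBGene00023573 and WBGene00023571 rest on few counts and on single libraries. With 1 library left out, they ran in ZZY10330 from -9.87 to -5.52 for WBGene00023573 and from -10.0 to -4.52 for WBGene00023571. In ZZY10307 they ran from -6.71 to -4.58 for WBGene00023573 and from -10.0 to -6.84 for WBGene00023571. Both strains were set against the same JU1421 libraries.

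Whether the sterile strains differ from each other was not part of how the genes were chosen. In ZZY10330 against ZZY10307, 1 of the 4 genes was called higher and 0 lower by edgeR, against 5.07% and 3.44% of all tested genes, and 1 of 4 had an unadjusted p below 0.05. The median log2 fold change was 1.05 over the 4 genes and 0.02 over all tested genes. WBGene00030304 averaged 23.99 ± 4.88 CPM in ZZY10330 and 10.7 ± 3.30 CPM in ZZY10307 (SD, n = 3 each), with all 3 ZZY10330 libraries above all 3 ZZY10307 libraries. The log2 fold change was 1.30 (SE 0.30, edgeR adjusted p = 0.00830). This call rests partly on ZZY10307 replicate 3: without that library the value was 1.10 (edgeR adjusted p = 0.0655), and it was 1.26 (edgeR adjusted p = 0.140) when the strains were fitted without the parents. Over 6 other scalings, filters and models the edgeR or DESeq2 adjusted p of this gene ran from 0.000986 to 0.140, below 0.05 in 5. The highest, 0.140, is that same fit of the sterile strains alone. With 1 library left out the edgeR adjusted p ran from 0.00467 to 0.0655.

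The 3 other genes did not pass. WBGene00039536 averaged 5.80 ± 2.79 CPM in ZZY10330 and 3.66 ± 1.57 CPM in ZZY10307, with a log2 difference of 0.79 (approximate 95% interval -0.38 to 1.95, edgeR adjusted p = 0.456). WBGene00023571 gave 2.27 (-0.38 to 4.93, edgeR adjusted p = 0.314), and its sign turned to -2.56 without ZZY10330 replicate 1, which holds all counts of that strain. WBGene00023573 gave -1.07 (-3.20 to 1.05, edgeR adjusted p = 0.613) and 0.51 without ZZY10307 replicate 2, which holds 9 of the 11 counts of that strain. These intervals include differences of 2-fold and more, so that equal levels in both strains are not shown. For the pair near 0, each estimate rests on few counts in 1 or 2 libraries of a strain.

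The fertile parents were compared in the same fit. In AF16 against JU1421 males, 1 of the 4 genes was called lower and 0 higher by edgeR, where 11.2% and 9.23% of all tested genes were. The median log2 fold change was -0.69 over the 4 genes and -0.02 over all tested genes. WBGene00030304 averaged 60.9 ± 4.50 CPM in AF16 males and 121 ± 19.3 CPM in JU1421 males (SD, n = 3 each), a log2 fold change of -1.10 (SE 0.27, edgeR adjusted p = 0.00547). Every AF16 library lay below every JU1421 library. WBGene00023571 averaged 16.3 ± 4.48 CPM in AF16 males and 38.6 ± 10.4 CPM in JU1421 males, also without overlap, but did not pass (log2 -1.33, SE 0.73, edgeR adjusted p = 0.219). WBGene00023573 averaged 66.7 ± 13.2 CPM in AF16 males and 34.9 ± 14.1 CPM in JU1421 males, with a log2 value of 0.84 (SE 0.54, edgeR adjusted p = 0.305). Its AF16 libraries, from 51.5 CPM, all lay above its JU1421 libraries, which reached 50.9 CPM. How many of all tested genes separate 2 strains without overlap was not counted. WBGene00039536 averaged 21.98 ± 5.92 CPM in AF16 males and 25.2 ± 5.56 CPM in JU1421 males, with overlapping libraries and a log2 value of -0.28 (SE 0.50, edgeR adjusted p = 0.759).

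When the parents were fitted without the sterile strains, WBGene00023571 (edgeR adjusted p = 0.0103) and WBGene00023573 (edgeR adjusted p = 0.0456) passed as well, so that 3 of 4 were called. Why the count changed was not tested. The counting reference is not known here, and reads of the 2 species may be assigned to the gene list unequally. The part of this in the species differences was not tested. The comparison of the sterile strains with JU1421 shares the C. nigoni genome outside the introgressed segment.

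**Figure D3:**
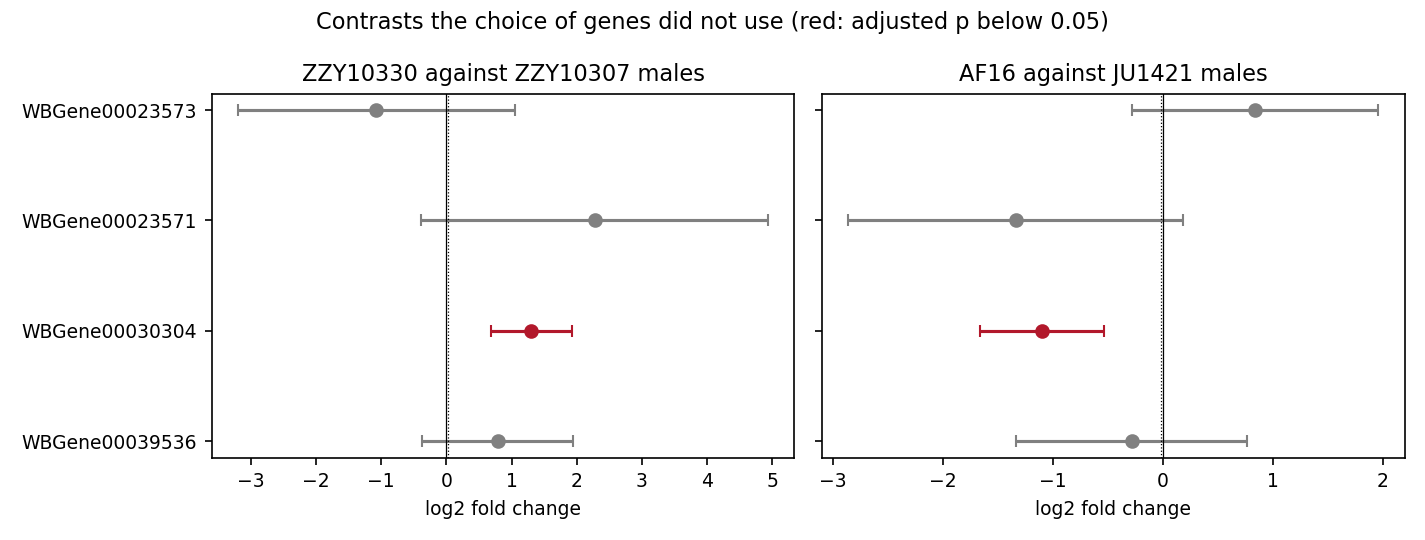
Fitted log2 fold changes of the 4 genes with approximate 95% intervals, for ZZY10330 against ZZY10307 males (left) and AF16 against JU1421 males (right); the dotted line is the median of all tested genes, and red marks an adjusted p below 0.05. In both panels WBGene00030304 is the gene that passed, at 1.30 and -1.10.

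The sex ratio of the 4 genes lay within the bounds but mostly on the male side. In AF16 the male mean exceeded the female library in 3 of 4 genes, with ratios of 1.76 in WBGene00023573, 0.608 in WBGene00023571, 1.57 in WBGene00030304 and 3.54 in WBGene00039536. In JU1421 it did in 4 of 4, with ratios of 2.39, 2.10, 1.99 and 3.66 for the genes in the same order. Over the 5438 genes inside the bounds, the median ratio was 0.897 in AF16 and 0.798 in JU1421, and 42.1% of them exceeded 1 in AF16 and 36.5% in JU1421. The bounds were used to choose the genes, and each parent has 1 female library, so that no test is given. The male levels in the ratio are also those that the choice set above the sterile libraries, which can by itself favour higher ratios.

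WBGene00039536 lay close to the upper bound of 4. Its females held 16 counts in AF16 and 21 in JU1421, which gives counting intervals of 2.32 to 5.56 and of 2.52 to 5.45 for the ratio. Counting error alone therefore does not place this gene inside the bound. Of the 5438 genes, 2.56% in AF16 and 2.997% in JU1421 had a ratio of 3 or more. For this gene the description as non-sex-biased follows from the bound, and males stood above females in all 6 parental male libraries.

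WBGene00023571 differed between the parents in the direction of its sex ratio. The AF16 males, at 12.2 to 21.1 CPM, all lay below the AF16 female library at 27.4 CPM, while the JU1421 males, at 27.1 to 47.1 CPM, all lay above the JU1421 female library at 17.9 CPM. The counting intervals of the ratios were 0.492 to 0.760 in AF16 and 1.65 to 2.70 in JU1421. The AF16 animals labelled female are ordinarily hermaphrodites that also make sperm, so the 2 ratios may not compare like animals. The difference between species was not tested, since each has 1 female library. The share of all genes with such opposite directions was not counted.

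Sterile males were also set beside the females. In 3 of 4, all 6 sterile libraries lay below both female libraries. The exception was WBGene00039536, where 5 of 6 did. Its ZZY10330 replicate 2 at 8.98 CPM exceeded the females at 5.49 CPM in AF16 and 6.15 CPM in JU1421. The counting intervals of these female levels reached 8.91 CPM in AF16 and 9.40 CPM in JU1421. The exception therefore rests on 1 library at the edge of counting error. Of the 5438 genes inside the sex ratio bounds, 1078 (19.8%) had all 6 sterile libraries below both females. Of the 242 lowered genes with a sex ratio of 4 or more, 0 did, though such a ratio by itself keeps the female level low. Since the choice of genes holds the sterile levels low, this is a description.

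The level that remained was set beside that of the 242 male-biased genes chosen by the same fall. In ZZY10330 their mean levels were 1.39 to 23.0% of JU1421 males, with a median of 11.4%, against a median of 32.5% over the 242 lowered male-biased genes. In ZZY10307 they were 0.723 to 14.6%, with a median of 6.14% against 20.3%. Relative to AF16 males the medians were 16.75% against 20.7% in ZZY10330 and 9.23% against 13.4% in ZZY10307. On that scale WBGene00030304, at 39.4% in ZZY10330 and 17.6% in ZZY10307, and WBGene00039536, at 26.4% and 16.7%, lay above the medians of the male-biased genes. Ranked by the ratio of the highest sterile to the lowest parental library among all 249 lowered genes, WBGene00023573 was at place 12, WBGene00023571 at 50, WBGene00030304 at 113 and WBGene00039536 at 142. Both sets were chosen on these values, and no test is given.

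Summed over the 4 genes, the level was 31.4 ± 6.25 CPM in ZZY10330 and 15.8 ± 4.63 CPM in ZZY10307, against 166 ± 19.4 CPM in AF16 males and 220 ± 8.07 CPM in JU1421 males (SD, n = 3 each). The female libraries held 109 CPM in AF16 and 98.4 CPM in JU1421. In whole worms, fewer cells of a type and less RNA per cell cannot be told apart.

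Strongly male-biased genes took a smaller share of the counts in sterile than in parental males. Genes with a sex ratio of 4 or more in both parents took 16.9 ± 2.39% of gene counts in ZZY10330 and 10.5 ± 0.677% in ZZY10307, against 28.8 ± 0.491% in AF16 males and 31.5 ± 1.66% in JU1421 males (SD, n = 3 each). This set was chosen on the levels of the same parental male libraries, which can by itself favour a larger share in them. A smaller share of these genes leaves a larger share of the counts to all others together. The median level of the 5438 genes was 111% of JU1421 males in ZZY10330 and 138.5% in ZZY10307. How much of this came from the smaller share was not tested. With TMM factors, which were 1.04 to 1.21 in the sterile and 0.828 to 0.917 in the parental male libraries, 45 genes met the same rule, including all 4. The 41 added genes had ratios between 0.701 and 1.02 on library totals. The 4 genes had ratios between 0.0834 and 0.435 on the TMM scale.

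**Figure D4:**
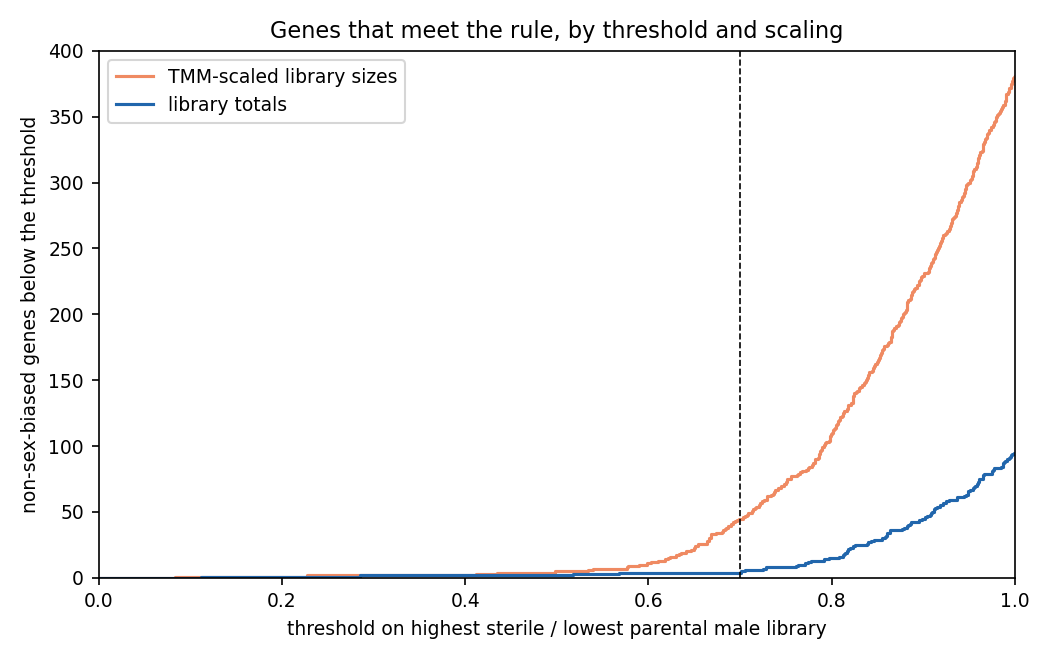
Number of genes inside the sex ratio bounds (vertical axis) whose highest sterile library lies below a given fraction of the lowest parental male library (horizontal axis), for TMM-scaled library sizes and for library totals. At the dashed line, 0.7, the counts are 45 and 4.

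The threshold of 0.7 fell at the upper edge of a gap from 0.568 to 0.701 on library totals. There were 2 genes below a threshold of 0.5, 4 below 0.6 and also below 0.7, 15 below 0.8, 45 below 0.9 and 95 below 1.0. Just inside stood WBGene00039536 at 0.568. Just outside stood WBGene00023826 at 0.701, with 39.0 ± 8.11 CPM in ZZY10330 and 61.8 ± 14.1 CPM in ZZY10307, against 118 ± 15.2 CPM in AF16 males and 160 ± 16.3 CPM in JU1421 males (SD, n = 3 each). The next genes outside had ratios of 0.706 and 0.725.

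The genes most like the mean profile of the 4 over the 12 male libraries were strongly male-biased. By Pearson correlation of log2(CPM + 1), among genes at 10 CPM or more in both parents, these were WBGene00087722 (r = 0.986), WBGene00026742 (r = 0.979) and WBGene00033293 (r = 0.978). WBGene00087722 averaged 0.194 CPM in ZZY10330 and 0 CPM in ZZY10307, against 29.7 CPM in AF16 males and 76.9 CPM in JU1421 males, and neither female library held a count. WBGene00026742 had sex ratios of 9.86 in AF16 and 6.50 in JU1421, and WBGene00033293 of 9.14 in AF16. In JU1421 the female library held no count of WBGene00033293, against a male mean of 237 CPM. Among genes inside the sex ratio bounds, the best correlation was 0.965. The mean profile carries the fall by which the 4 genes were chosen. Of the 249 genes with that fall, 242 had a sex ratio of 4 or more in both parents. A strong male bias of the most similar genes therefore follows largely from the choice. The libraries also share strain and depth, so these values describe likeness only.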

How the data were processed

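The deposited gene files hold unnormalized counts from the authors, 1 file for each of 14 libraries, per the file headers. Per the submitters' processing notes, Trimmomatic and edgeR were used. Aligner, counting program, build, annotation and strand setting: not given in the sources used here. Near-identical copies and overlapping genes may share reads. Libraries were made with a stranded TruSeq mRNA kit, from 300 ng of RNA for males, per the labels' protocols. Repeat family counts were not used here.

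Groups follow strain and sex in the labels. CPM were computed from library totals with pandas 2.3.3. Strains were compared with edgeR 4.0.16 (filterByExpr with its minimum count of 10, TMM, robust quasi-likelihood F test, 12 male libraries in 1 fit, Benjamini-Hochberg adjustment over 13289 genes, threshold 0.05). The SE is the absolute log2 fold change over the root of F. DESeq2 1.42.0 was an alternative. The fit was checked on simulated data. Exact intervals use scipy 1.17.1 at 95%. Replicate libraries differed beyond sampling noise (7.01 to 25.6 chi-square units per degree of freedom).

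The genes and all lists were chosen with earlier results of these data known. All 4 genes are named, besides 1 gene at the threshold and the 3 most similar ones. Planned gene lists, markers and promoter motifs need gene names or sequences and were not analysed here.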

Additional observations from a re-analysis of the deposited data

Results flagged for a closer look

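WBGene00030304 stood out because its fall was not equal in the sterile strains: the direct comparison of ZZY10330 with ZZY10307 males gave a log2 fold change of 1.30 (edgeR adjusted p = 0.00830), with 3 of 3 ZZY10330 libraries above every ZZY10307 library. The call was lost without ZZY10307 replicate 3, where the value was 1.10 (edgeR adjusted p = 0.0655), and when only the sterile strains were fitted, where it was 1.26 (edgeR adjusted p = 0.140).

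WBGene00023571 stood out because its sex ratio pointed opposite ways in the parents, at 0.608 in AF16 and 2.10 in JU1421, with every male library on the stated side of the single female library. The difference was not tested.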

How the results depend on the processing

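The number of genes that met the rule depended on the scale and on the threshold: it was 45 with TMM-scaled sizes, 41 with DESeq2 size factors, 2 at a ratio of 0.5, 45 at 0.9, 1 with sex ratios between 1/2 and 2, and 86 with strain means in place of single libraries. In alternatives chosen after seeing the data it was 24 when male-biased genes were left out of the library totals and 249 without a bound on the sex ratio. It ran from 4 to 7 with 1 library left out, and was 7 without ZZY10330 replicate 1, ZZY10307 replicate 1 or JU1421 replicate 1. The DESeq2 size factors and the reduced library totals each kept 3 of the 4 genes, as did leaving out AF16 replicate 3 or JU1421 replicate 2. In each of these settings the sex ratio of WBGene00039536 passed the bound of 4 in at least 1 parent. As reported it was 3.54 in AF16 and 3.66 in JU1421. Fewer libraries ease the condition on single libraries, but can move the sex ratio either way, and a looser bound admits more genes. Why the other counts changed was not tested.

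Calls of the sterile strains against the parents follow from how the genes were chosen and are not read here. In ZZY10330 against ZZY10307 the count of calls, 1, became 0 when only these strains were fitted, where WBGene00023573 and WBGene00023571 did not pass the filter on low counts, and ran from 0 to 1 with 1 library left out. In AF16 against JU1421 it became 3 when only the parents were fitted. With 1 library left out it stayed at 1. The log2 difference of the sterile strains turned to -2.56 in WBGene00023571 without ZZY10330 replicate 1 and to 0.51 in WBGene00023573 without ZZY10307 replicate 2. With 1 library left out it ran from -2.56 to 4.87 in WBGene00023571 and from -4.74 to 0.51 in WBGene00023573. Scaled by total counts alone, the median of all genes moved by over 0.1 in every comparison other than that of the parents, for example to 0.197 in ZZY10330 and 0.482 in ZZY10307 against JU1421. Replicate numbers did not pair the libraries (correlations of deviations from -0.0434 to 0.0308), and with the replicate block the count of calls was 1 between the sterile strains and 1 between the parents. For the pair of genes near 0, the strain comparison rests on 2 to 12 counts summed over a strain.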
